A study of Mus musculus with 12 samples.

Results

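Imprinted genes are expressed mainly from the maternal or mainly from the paternal chromosome, and this report follows 50 well-known mouse imprinted genes through RNA-seq libraries of oocytes with and without Polycomb repressive complexes. The genes were matched by symbol in both deposited tables of TPM, a read abundance corrected for gene length and scaled to the same sum in every library, and 50 of 50 were found among 55385 gene models in one table and 55401 in the other. By textbook knowledge of the embryo and adult, 27 are expressed from the paternal allele, 21 from the maternal allele, and 2 (Grb10 and Gnas) from an allele that depends on the isoform or tissue. The 12 libraries fall into 6 groups of 2. In the PRC2 table, non-growing oocytes of postnatal day 6 (P6) and growing oocytes of postnatal day 7 (P7) came from control ovaries (Eed F/+; Ddx4-Cre) and from conditional knockouts, cKO (Eed F/-; Ddx4-Cre). In the PRC1 table, growing oocytes of P7 came from control ovaries labelled Ring1-/-; Rnf2 F/+; Ddx4-Cre and from cKO ovaries labelled Ring1-/-; Ring1 F/-; Ddx4-Cre. That cKO label names Ring1 a second time, possibly in place of Rnf2, and "PRC1 cKO" below follows the label. All 6 groups carry Ddx4-Cre, which acts in germ cells, the PRC2 controls keep 1 intact Eed copy, and both PRC1 groups lack Ring1. Whether both libraries of a group stem from separate animals is not in the labels, so p-values measure the spread between these libraries only.

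Which parental copy of an imprinted gene is active is set by DNA methylation laid down in the germ line. Methylation inherited from the parents is erased in the precursors of oocytes, and the maternal pattern is written again by DNMT3A with DNMT3L while the oocyte grows. Many imprinted genes control growth of the fetus and placenta, and several clusters are held silent on 1 chromosome by a long noncoding RNA. PRC2 methylates histone H3 and PRC1 ubiquitinates histone H2A, and both complexes keep developmental genes silent. TPM per gene does not separate the parental alleles, so every value below is the total of both.

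On the log2(TPM + 1) scale the members with the largest increase in PRC1 cKO were Dlk1, Ascl2, Cd81 and Slc22a18, and their promoters are shown for that reason. With a pseudocount of 0.1 in place of 1 the order changes, and Slc22a18 (4.77) and Peg12 (4.54) follow Dlk1 (5.79), with Cd81 at 3.55. Each sequence runs from 250 bases before to 50 bases after the annotated start (RefSeq, GRCm38.p6), 5′ to 3′ on the strand of the gene, with CG dinucleotides, the site of DNA methylation, in capitals. They lie at chr12:109452573-109452872 (Dlk1, plus strand), chr7:142969215-142969514 (Ascl2, minus strand), chr7:143052500-143052799 (Cd81, plus strand) and chr7:143473539-143473838 (Slc22a18, plus strand).
Dlk1: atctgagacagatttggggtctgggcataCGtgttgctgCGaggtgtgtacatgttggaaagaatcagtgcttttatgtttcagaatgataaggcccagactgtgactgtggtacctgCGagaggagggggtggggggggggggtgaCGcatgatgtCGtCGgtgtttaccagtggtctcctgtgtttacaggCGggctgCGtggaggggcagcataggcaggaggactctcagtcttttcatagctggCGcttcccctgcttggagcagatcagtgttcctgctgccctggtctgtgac
Ascl2: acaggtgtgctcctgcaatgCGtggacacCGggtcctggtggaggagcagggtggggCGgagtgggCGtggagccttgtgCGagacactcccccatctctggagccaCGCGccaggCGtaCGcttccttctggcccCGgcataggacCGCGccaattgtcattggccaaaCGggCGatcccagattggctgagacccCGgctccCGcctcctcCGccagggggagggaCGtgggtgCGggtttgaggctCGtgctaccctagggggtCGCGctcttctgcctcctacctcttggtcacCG
Cd81: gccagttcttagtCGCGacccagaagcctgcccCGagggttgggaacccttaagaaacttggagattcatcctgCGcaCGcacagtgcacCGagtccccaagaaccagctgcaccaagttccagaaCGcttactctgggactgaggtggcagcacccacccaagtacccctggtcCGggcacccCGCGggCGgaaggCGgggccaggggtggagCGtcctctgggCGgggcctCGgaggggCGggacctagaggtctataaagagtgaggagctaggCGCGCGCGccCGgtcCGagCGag
Slc22a18: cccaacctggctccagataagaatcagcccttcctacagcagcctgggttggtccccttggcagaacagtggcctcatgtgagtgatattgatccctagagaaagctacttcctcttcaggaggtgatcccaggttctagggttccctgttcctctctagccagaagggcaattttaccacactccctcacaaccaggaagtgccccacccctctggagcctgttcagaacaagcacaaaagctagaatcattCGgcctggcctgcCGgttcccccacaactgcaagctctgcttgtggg
Ascl2 and Cd81 hold 23 CG each, Dlk1 holds 9 and Slc22a18 holds 2. The median is 7 among all 32851 RefSeq promoters of this length and 17 among the 65 promoters of the 41 members with an entry. Of member promoters, 69.2% hold at least 10 CG, against 43.5% of all promoters. The hexamer TGCCGC, the core of the sequence bound by ZFP57, was searched on both strands. It is in none of these 4 windows, in 21.5% of member promoters and in 11.6% of all promoters.

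Oocyte genes were abundant in all libraries, and Eed was low where the labels say it was deleted. The summed TPM of 12 oocyte markers lay between 9737 and 19028 in every library. Eed was at 88.8 and 90.5 TPM in control against 12.1 and 10.3 TPM in cKO oocytes of the non-growing stage, and at 62.3 and 60.5 against 9.64 and 10.1 TPM in growing oocytes, log2 fold changes of -2.90 (adjusted p = 0.000252) and -2.52 (adjusted p = 0.0014) by limma. Rnf2 was at 59.2 and 53.8 TPM in PRC1 control and 87.8 and 61.4 TPM in PRC1 cKO (log2 fold change 0.37, adjusted p = 0.197). Reads outside a deleted part still count, so this total does not check the label, and the PRC1 comparison rests on the label. TPM has a fixed sum, and models of the annotation class TEC, which await experimental evidence, took 2.26% to 2.57% of it in non-growing oocytes, 20.9% to 25.9% in growing oocytes of all other groups and 11.0% to 14.9% in PRC1 cKO. A fold change of TPM is relative to the rest of the library, and the median over all tested genes is given beside each comparison. Fold changes are differences of log2(TPM + 1), which understate changes of genes at low TPM.

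Few imprinted genes were abundant in these oocytes. In PRC2 control non-growing oocytes 14 members had a mean of at least 10 TPM, 13 lay between 1 and 10 TPM and 23 were below 1 TPM. In PRC2 control growing oocytes these counts were 12, 13 and 25. The summed TPM of all members was 1344 and 1359 in the non-growing and 894 and 823 in the growing PRC2 control libraries, and 943 and 1019 in PRC1 control against 1616 and 1497 in PRC1 cKO. Commd1, a regulator of copper handling and of NF-kB, was the most abundant member in non-growing control oocytes at 500.2 and 497 TPM. Of its 86247 bases, 85955 are shared with the model Gm28048 on the same strand, so the split of reads between them is uncertain. Gnas, the stimulatory G protein alpha subunit through which receptors raise cyclic AMP, followed at 246 and 235 TPM. Both stayed the most abundant pair in each of the 6 groups. Behind them in non-growing controls came Snrpn, a spliceosome protein, at 150.4 and 160.3 TPM, and Cd81, a tetraspanin of the cell surface, at 110.3 and 121 TPM.

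Many of the classical imprinted genes were near 0 in every group. H19, Magel2, Kcnk9, Peg13 and Kcnq1ot1 did not exceed 0.12 TPM in any library. H19, the noncoding RNA beside Igf2, was at 0 in both control libraries of each group. Kcnq1ot1, the paternal antisense RNA that silences its neighbours on chromosome 7, lay between 0.01 and 0.05 TPM. Peg10, a retrotransposon-derived placental gene, reached 0.17 TPM and Zim1 reached 0.21 TPM. A gene was tested where 2 or more libraries of its table reached 1 TPM, which held for 33 of 50 members in the PRC2 libraries and for 38 of 50 in the PRC1 libraries. In the PRC1 table Igf2, Meg3, Nap1l5, Ndn, Nnat, Peg12, Rasgrf1, Slc22a18 and Zdbf2 were below 1 TPM in both controls and entered the test only through their PRC1 cKO libraries. These 9 had to be higher there, so their levels and log2 fold changes are given below as a description, with no p. Over all tested genes, 2194 of 14941 entered in the same way. Among the members called with growth in PRC2 control, Ascl2, Ndn, Peg3 and Zdbf2 reached 1 TPM only in non-growing control oocytes. Asb4, Dio3, Phlda2 and Plagl1 did so only in growing control oocytes. Osbpl5 reached it only in growing PRC2 cKO oocytes. The entry rule favours these directions, so changes with growth in them are also given as a description, with no p. It also favours lower values of Ascl2 and Ndn in non-growing PRC2 cKO and higher values of Osbpl5 in growing PRC2 cKO. These are given in the same way. The share of all genes that entered in this way was not counted.

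Imprinted genes of both parental classes rose in PRC1 cKO oocytes. In PRC1 cKO growing oocytes 18 members were called higher and 2 lower among the 38 tested, and 18 did not pass (limma, adjusted p under 0.05 over all genes tested). The 9 members with no control library at 1 TPM were all among the 18, and the other 29 tested gave 9 higher and 2 lower. Higher calls took 47.4% of tested members, against 41.3% of all 14941 genes, and lower calls 5.26% against 6.45%, and 20 calls among 38 stand beside 47.8% of all genes called, so the counts are close to the background. The median log2 fold change was 0.77 over the tested members and 0.55 over all tested genes. Paternally expressed members gave 9 rises and 1 fall among 18 tested, and maternally expressed members gave the same counts among 18. These counts include the 9 members that had to be higher, all paternal but for Meg3 and Slc22a18. Apart from them, the paternal rises were Dlk1 and Impact. The maternal ones were Ascl2, Cd81, Cdkn1c, Cobl, Commd1, Phlda2 and Ube3a. Over all 50 members, both PRC1 cKO libraries were above both controls for 36 and below both for 6, against 50.8% and 9.44% of all models above 0. The plot of levels in PRC1 control and cKO shows each library of the 20 members that passed.

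**Figure D1:**
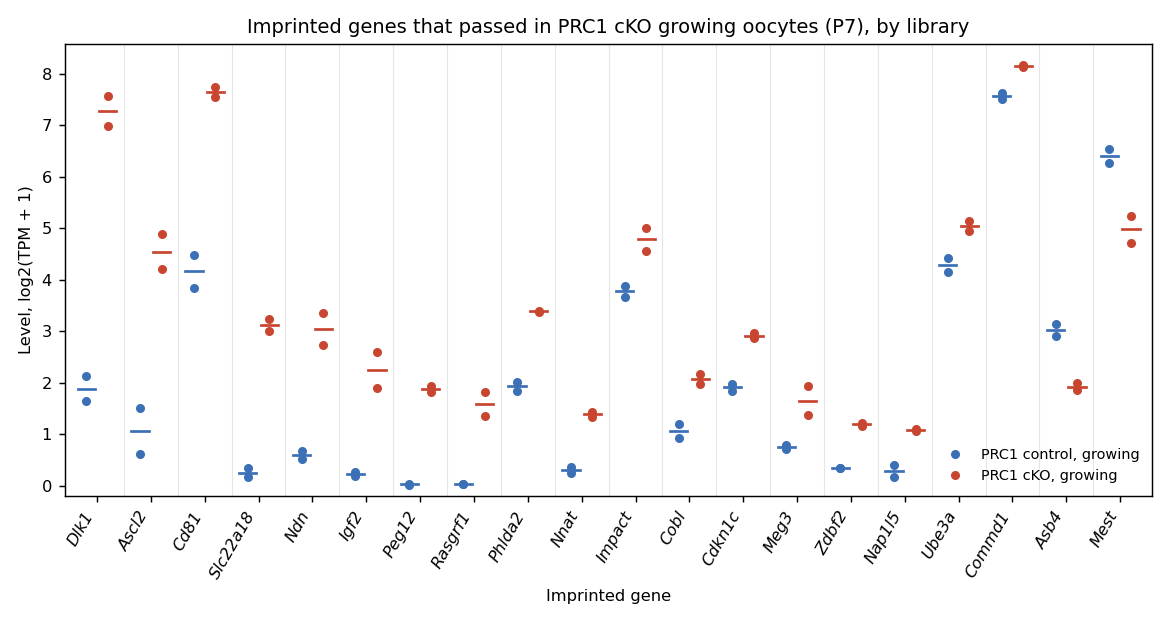
Levels of the 20 imprinted genes that passed in PRC1 cKO growing oocytes, as log2(TPM + 1). Points are libraries (2 per group), bars are group means and genes are ordered by fold change. Dlk1 stands highest above its control, and only Asb4 and Mest lie below theirs.

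Dlk1 (chr12:109452823-109463336, GRCm38), a transmembrane protein with EGF repeats that restrains fat cell differentiation, showed the largest change of any member. It was at 2.12 and 3.36 TPM in the control and 188 and 125 TPM in the PRC1 cKO libraries. The groups were far apart, and Dlk1 moved from a low level to the 4th most abundant member. Its log2 fold change was 5.39 (SE 0.29, adjusted p = 0.00208), or 41.9-fold. Meg3, the maternally expressed noncoding RNA of the same cluster, was at 0.72 and 0.64 TPM in control against 2.83 and 1.58 TPM in PRC1 cKO, a change of 0.90 that was -0.0085 after quantile normalization. Dio3 of the same cluster, which inactivates thyroid hormone, was at 3.9 and 4.19 TPM in control against 2.73 and 2.83 TPM in PRC1 cKO, with no overlap but no call (log2 fold change -0.42, adjusted p = 0.15). Begain was at 0 in both controls and at 0.46 and 0.16 TPM in PRC1 cKO, below the level tested.

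The cluster around Kcnq1ot1 on chromosome 7 gave 5 higher calls and 0 lower calls among its 8 tested members, where 41.3% and 6.45% of all genes were called. Kcnq1 was called lower after quantile normalization (-1.45, adjusted p = 0.0162) and trimmed-mean scaling (-1.35, adjusted p = 0.0156), with 3 and 4 higher calls in the cluster. Slc22a18 is among the higher calls each time. It entered only through PRC1 cKO and had to be higher there, so these counts are a description only. Ascl2 (chr7:142966829-142969264), a helix-loop-helix factor of trophoblast and intestinal stem cells, went from 0.53 and 1.86 TPM to 28.4 and 17.5 TPM, a log2 fold change of 3.48 (SE 0.41, adjusted p = 0.00392). Cd81 (chr7:143052739-143067934) went from 13.4 and 21.4 TPM to 214 and 185 TPM, a change of 3.48 (SE 0.25, adjusted p = 0.00212). Slc22a18 (chr7:143473736-143499334), a membrane transporter, was almost absent at 0.27 and 0.12 TPM and reached 8.42 and 6.98 TPM, a change of 2.86. For all 3 genes every PRC1 cKO library was above every control library.

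Smaller rises were found for the growth-restraining genes of the same cluster. Phlda2, which limits growth of the placenta, rose from 3.06 and 2.57 to 9.51 and 9.4 TPM, a log2 fold change of 1.46 (adjusted p = 0.00635). Cdkn1c, the cell cycle inhibitor p57, rose from 2.96 and 2.56 to 6.34 and 6.78 TPM, a change of 1.01 (adjusted p = 0.0166). Neither group overlapped its control, but neither call was kept after all scalings. Osbpl5 and Tssc4 separated as well without passing, at 1.00 (adjusted p = 0.0582) and 0.91 (adjusted p = 0.0635). Kcnq1, a potassium channel gene that contains Kcnq1ot1, was at 8.49 and 12.6 TPM in control libraries, against 7.35 and 4.11 TPM in PRC1 cKO, a change of -0.80 (adjusted p = 0.111). It was the one tested member of the cluster with a negative estimate, and reads of Kcnq1 and Kcnq1ot1 cannot be told apart where strand was not used. Along the chromosome, the genes called higher start at -327.3 kb (Ascl2), -243.8 kb (Cd81), 164.5 kb (Cdkn1c), 177.2 kb (Slc22a18) and 206.6 kb (Phlda2) from the Kcnq1ot1 start, on both sides of it.

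**Figure D2:**
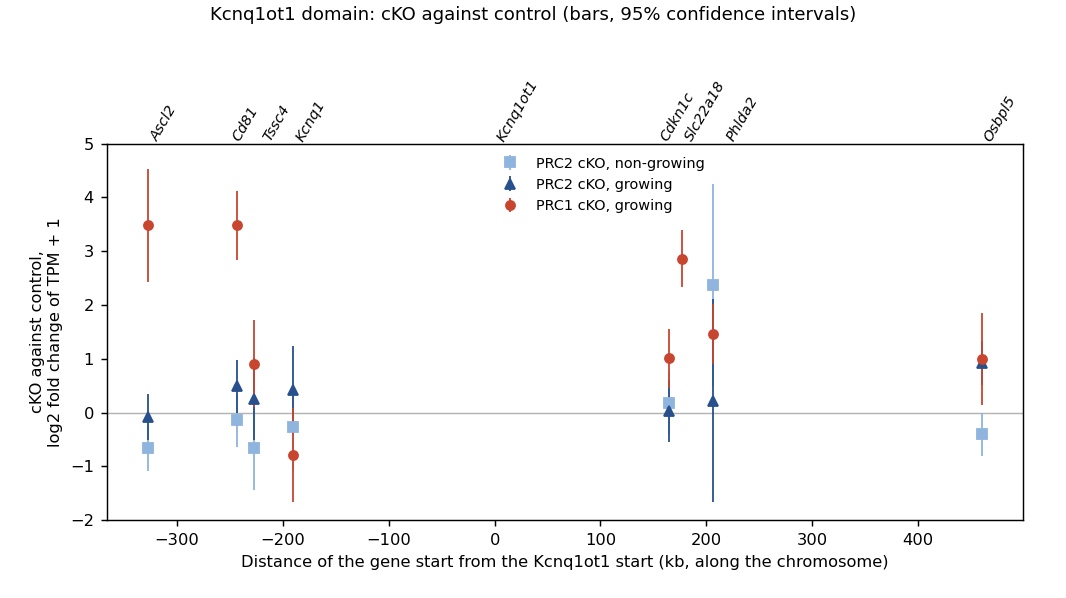
Log2 fold change of TPM + 1 (cKO against control) for the tested members of the Kcnq1ot1 cluster, by distance of the gene start from the Kcnq1ot1 start in kb, with 95% confidence intervals from limma. The red circles (PRC1 cKO) reach 3.48 for Ascl2 and Cd81, and blue symbols (PRC2 cKO at both stages) stay within 1 of 0 except Phlda2 in non-growing oocytes. Kcnq1ot1 itself was below the level tested. The entry rule favours the directions of Slc22a18 in PRC1 cKO, Ascl2 in non-growing PRC2 cKO and Osbpl5 in growing PRC2 cKO.

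In the Snrpn cluster Ndn and Peg12 were higher in PRC1 cKO, Ube3a rose and Snrpn did not pass. Ndn, a growth suppressor of neurons, was at 0.44 and 0.59 TPM in control libraries, against 9.17 and 5.65 TPM in PRC1 cKO, a log2 difference of 2.44. Peg12, a FRAT family gene, was at 0.01 and 0.03 TPM and then 2.52 and 2.84 TPM, a difference of 1.85. Both genes were near 0 in control and apart from it in both PRC1 cKO libraries. Mkrn3, a RING finger gene, was at 0.07 and 0.08 TPM in control libraries, against 1.16 and 0.47 TPM in PRC1 cKO and was not tested, and Magel2 reached only 0.04 TPM. Snrpn itself was at 39.8 and 46 TPM in control libraries, against 53 and 43.8 TPM in PRC1 cKO, and its groups overlapped (log2 fold change 0.17, adjusted p = 0.458). Ube3a, the maternally expressed ubiquitin ligase lost in Angelman syndrome, rose from 20.5 and 16.7 to 29.7 and 34.2 TPM, a change of 0.75 (adjusted p = 0.0274).

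A further pair of paternal genes that were near 0 in control were above 1 TPM in both PRC1 cKO libraries. Igf2, the fetal growth factor, was at 0.14 and 0.2 TPM in control libraries, against 5.05 and 2.72 TPM in PRC1 cKO, a log2 difference of 2.02. Rasgrf1, an exchange factor that activates Ras, was at 0.03 and 0.02 TPM and then 2.55 and 1.57 TPM, a difference of 1.56. Neither overlapped its control, and H19 beside Igf2 stayed at or under 0.12 TPM. Of the 16051 bases of the Igf2 model, 16048 are shared with Gm49394 on the same strand, so the split of reads between them is uncertain.

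The remaining higher calls were of 0.59 to 1.08 on the log2 scale. Nnat, a proteolipid of the endoplasmic reticulum, went from 0.28 and 0.19 to 1.71 and 1.52 TPM. Cobl, an actin nucleator, went from 0.9 and 1.3 to 3.5 and 2.94 TPM, and Impact, a brake on the GCN2 stress kinase, from 11.7 and 13.8 to 31.3 and 22.5 TPM. Zdbf2, a zinc finger gene, went from 0.27 and 0.27 to 1.25 and 1.32 TPM. None of these 4 genes overlapped between groups, and their log2 fold changes were 1.08 for Nnat and 0.85 for Zdbf2, 1.01 (adjusted p = 0.0155) for Cobl and 1.01 (adjusted p = 0.0206) for Impact. Nap1l5, a gene related to nucleosome assembly proteins, was at 0.12 and 0.33 against 1.09 and 1.15 TPM, a log2 difference of 0.80, and Commd1 rose from 181 and 195 to 287 and 278 TPM (log2 fold change 0.59, adjusted p = 0.0159). Zdbf2 and Nap1l5 turned negative after quantile normalization (-0.13 and -0.16), and Commd1 after trimmed-mean scaling (-0.036).

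Mest and Asb4 were the members called lower as reported. Mest (chr6:30723547-30748465), a hydrolase-fold protein of mesoderm, was at 91.8 and 75.9 TPM in control libraries, against 25.4 and 36.6 TPM in PRC1 cKO, so that the log2 fold change was -1.42 (SE 0.23, adjusted p = 0.00761). Asb4 (chr6:5383386-5433022), a substrate adaptor of a ubiquitin ligase, was at 7.78 and 6.5 TPM in control libraries, against 2.61 and 2.97 TPM in PRC1 cKO, a change of -1.10 (SE 0.22, adjusted p = 0.0147). Both PRC1 cKO libraries lay below both controls for each gene. H13 and Zrsr1 were also called lower under each of the 3 other scalings, Dio3, Kcnq1 and Herc3 under quantile normalization and trimmed-mean scaling, Usp29 under the former and Snrpn under the latter. Under the 3 other scalings Mest stood at -1.67 to -2.03 and Asb4 at -1.30 to -1.83, all passing.

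Many of the PRC1 calls depended on the scaling. The median of all tested genes moved from 0.55 to 0.34 after scaling to nuclear protein-coding genes, -0.04 under quantile normalization and 0.02 under a trimmed-mean scaling, and the split of all calls from 6176 higher and 964 lower to 4986 and 1536, 2722 and 2636, and 3488 and 2946. Ascl2, Cd81, Dlk1, Igf2, Ndn, Peg12, Rasgrf1 and Slc22a18 kept the higher call and Asb4 and Mest the lower call in all 4 scalings, and the other 10 higher calls did not. Of these, Igf2, Ndn, Peg12, Rasgrf1 and Slc22a18 entered only through PRC1 cKO, judged on unscaled TPM. They had to be higher as reported, so for them the kept call is a description only. Members called higher and lower numbered 18 and 2 as reported, 16 and 4 after protein-coding scaling, 13 and 8 after trimmed-mean scaling and 8 and 8 after quantile normalization. With 1 library left out in turn, Asb4, Cdkn1c, Cobl, Commd1, Impact, Meg3, Nap1l5, Ube3a and Zdbf2 lost the call at least once, at adjusted p between 0.0524 and 0.153. The members called numbered 11 without PRC1 control replicate 1 and 12 without PRC1 cKO replicate 1. Without either PRC1 cKO library, Igf2, Meg3, Nap1l5, Ndn, Nnat, Peg12, Rasgrf1, Slc22a18 and Zdbf2 no longer reached 1 TPM in 2 libraries and had no test, so they were not checked against the loss of a cKO library. The sizes for low genes depend on the pseudocount, and Slc22a18 stood at 4.77 with a pseudocount of 0.1 and 1.29 with 5.

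Summed markers of other ovarian cells were higher in PRC1 cKO, though not every marker was, and their part in the PRC1 comparison was not tested. The summed TPM of 14 granulosa cell markers was 10.1 to 14.4 in PRC1 control and 32.2 to 51.3 in PRC1 cKO, with Inhbb and Foxl2 at 0 in control and no marker at 0 in cKO. The 10 stromal markers summed to 1.76 and 3.04 TPM in control, against 6.45 and 9.68 TPM in cKO (Lum at 0 in control, Tcf21 at 0 in cKO), and the 8 endothelial markers to 6.47 and 7.56 against 17.7 and 17.9 TPM (Emcn at 0 in control). The 8 immune markers summed to 14.2 and 15.2 against 36.6 and 43.3 TPM, with Cd52, Tyrobp and C1qa at 0 in control. C1qb made up most of these sums (11.6 and 12.8 against 38.8 and 33.5 TPM), and Cd68 was at 2.49 and 2.11 against 2.69 and 2.5 TPM. Granulosa Nr5a2 (6.4 and 6.62 against 3.77 and 4.04 TPM) and stromal Acta2 (2.13 and 0.84 against 0.05 and 0.1 TPM) were lower in cKO. Endothelial Pecam1 overlapped (5.62 and 3.72 against 2.32 and 5.73 TPM). Among tested markers, 5 of 6 for granulosa, 1 of 1 for stroma, 4 of 5 for endothelium and 1 of 2 for immune cells were called higher, where 41.3% of all genes were. Of these, Inhba, Cyp19a1, Nr2f2, Cldn5, Tie1 and Egfl7 were below 1 TPM in both controls and entered only through PRC1 cKO. They had to be higher there, so these counts are a description only. The 12 oocyte markers summed to 17688 and 19028 TPM in control, against 14498 and 15560 TPM in PRC1 cKO. Of these, 5 were called higher and 3 lower. In bulk libraries, more cells of another type and more RNA per oocyte cannot be told apart.

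Imprinted genes differed in both directions between non-growing and growing oocytes. Between non-growing P6 and growing P7 control oocytes 10 members rose and 15 fell among 33 tested. Of these, the rises of Asb4, Dio3, Phlda2 and Plagl1 and the falls of Ascl2, Ndn, Peg3 and Zdbf2 are in the direction that the entry rule favours. Rises took 30.3% of tested members against 16.6% of all 14153 genes, and falls 45.5% against 54.0%, and 25 calls stand beside 70.6% of all genes called. Over all 50 members the growing libraries were both higher for 17 and both lower for 23, against 16.3% and 42.0% of all models above 0. The median log2 fold change was -0.42 over members and -0.67 over all genes. Paternally expressed members gave 4 rises and 7 falls and maternally expressed members 5 rises and 7 falls. Summed granulosa markers were at 4.36 and 4.78 TPM in non-growing and 10.2 and 10.8 TPM in growing controls, and immune markers at 1.92 and 2.02 against 13.6 and 13.6 TPM. Most of these rises came from Nr5a2 (0.48 and 0.39 against 4.95 and 5.06 TPM) and C1qb (1.06 and 1.03 against 10.7 and 11.1 TPM), while Kitl and Inhba were lower. Stromal markers summed to 3.24 to 3.88 against 3.41 to 4.17 TPM and endothelial ones to 7.94 to 9.3 against 5.18 to 8.27 TPM. The part of these markers was not tested. Stage and age change together here and cannot be told apart.

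Mest showed the largest rise with growth. It was at 1.58 and 1.33 TPM in non-growing and 81.2 and 96.4 TPM in growing control oocytes, a log2 fold change of 5.19 (SE 0.25, adjusted p = 1.01e-05), or 36.5-fold. In PRC2 cKO it went from 0.98 and 2.02 to 79.3 and 111 TPM, a change of 5.28 (adjusted p = 8.54e-06). Growing libraries stood far above non-growing ones in both genotypes, and Mest went from a low level to the 3rd most abundant member of growing control oocytes.

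The other rises were spread over several clusters. Trappc9, a subunit of a vesicle tethering complex, went from 10.1 and 11.7 to 42 and 43.1 TPM, a log2 fold change of 1.88 (adjusted p = 2.60e-05). Plagl1, a zinc finger factor of a wide imprinted network, went from 0.49 and 0.47 to 5.13 and 7.71 TPM (log2 difference 2.30). Asb4 went from 0.42 and 0.4 to 6.41 and 4.91 TPM (log2 difference 2.23). All growing libraries of these 3 genes lay above all non-growing ones. Grb10, an adaptor that damps insulin and IGF signalling, rose from 1.16 and 1.23 to 6.2 and 7.89 TPM (log2 fold change 1.87, adjusted p = 0.00264), and Dio3 from 0.46 and 0.39 to 2.65 and 2.11 TPM (log2 difference 1.24). Phlda2 rose from 0.22 and 0.74 to 6.57 and 5.98 TPM (log2 difference 2.32), Kcnq1 from 1.19 and 0.98 to 3.61 and 2.88 TPM (log2 fold change 1.02, adjusted p = 0.032) and Blcap, a small membrane protein, from 58.1 and 62.1 to 81.3 and 92.2 TPM (log2 fold change 0.52, adjusted p = 0.0322). Usp29, a deubiquitinase gene, rose from 1.08 and 1.21 to 2.46 and 2.61 TPM (log2 fold change 0.72, adjusted p = 0.00901). These 10 rises held in all 4 scalings, each with entry judged on unscaled TPM.

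Dlk1 and Cd81 led the falls with growth. Dlk1 went from 9.93 and 14.2 TPM to 1.02 and 0.57 TPM, a log2 fold change of -2.86 (SE 0.24, adjusted p = 6.28e-05). Cd81 went from 110.3 and 121 TPM to 18.9 and 15.8 TPM, a change of -2.67 (SE 0.21, adjusted p = 4.82e-05). Mcts2, a retrotransposed copy of a translation factor gene inside H13, went from 46 and 44.6 to 8.56 and 7.57 TPM (log2 fold change -2.35, adjusted p = 1.07e-05). Growing and non-growing libraries did not overlap for any of them. Snrpn went from 150.4 and 160.3 to 39.4 and 41.1 TPM (log2 fold change -1.92, adjusted p = 9.98e-06), Peg3, a zinc finger regulator of maternal care and metabolism, from 5.03 and 4.78 to 0.76 and 0.43 TPM (log2 difference -1.90) and Cdkn1c from 11.3 and 13.4 to 2.15 and 4.03 TPM (log2 fold change -1.74, adjusted p = 0.000666). Igf2r, the receptor that clears IGF2, went from 5.49 and 5.57 to 1.63 and 1.49 TPM (log2 fold change -1.35, adjusted p = 0.000311) and Impact from 36.5 and 35.2 to 13.1 and 13.6 TPM (log2 fold change -1.36, adjusted p = 7.01e-05). The groups of these 5 genes were apart as well.

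Lower members and those near the all-gene shift completed the falls. Ndn went from 1.61 and 1.26 to 0.17 and 0.39 TPM (log2 difference -0.93), Zdbf2 from 1.71 and 1.21 to 0.35 and 0.28 TPM (log2 difference -0.90) and Ascl2 from 1.94 and 1.52 to 0.63 and 0.35 TPM (log2 difference -0.88). Commd1 went from 500.2 and 497 to 228 and 182 TPM (log2 fold change -1.29, adjusted p = 0.000101), Tssc4 from 24.3 and 29.1 to 11.1 and 9.8 TPM (log2 fold change -1.27, adjusted p = 0.0102) and Ube3a from 45.1 and 41.2 to 22.9 and 25.6 TPM (log2 fold change -0.81, adjusted p = 0.00595). Gnas went from 246 and 235 to 212 and 164 TPM (log2 fold change -0.37, adjusted p = 0.0339), which turned to 0.46 after trimmed-mean scaling (adjusted p = 0.0352). Ascl2, Commd1, Gnas, Tssc4 and Ube3a did not keep the call in all 4 scalings, which moved the all-gene median from -0.67 to between -0.29 and -0.02 and the split of all calls from 2346 higher and 7640 lower to as much as 4206 and 3816. With 1 library left out in turn, Blcap, Gnas, Kcnq1, Phlda2, Tssc4 and Usp29 lost the call at least once, at adjusted p between 0.0501 and 0.147.

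**Figure D3:**
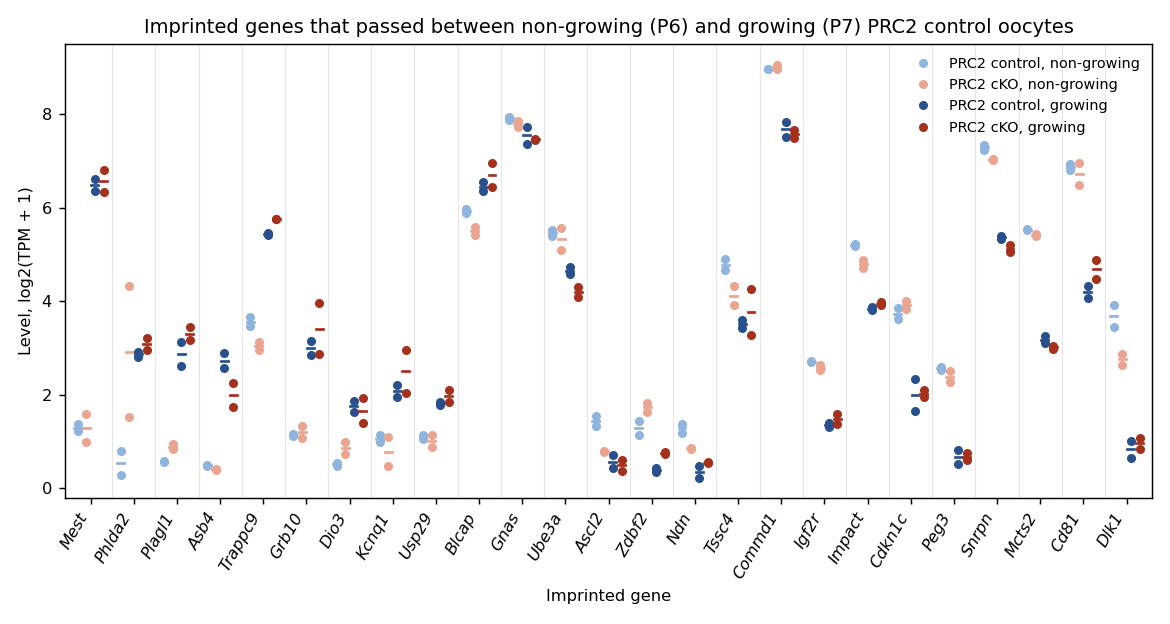
Levels of the 25 imprinted genes that passed between non-growing and growing PRC2 control oocytes, as log2(TPM + 1), in all 4 groups of the PRC2 table. Points are libraries (2 per group) and short bars are group means. Light colours are non-growing and dark colours growing oocytes, blue is control and red is cKO, and genes are ordered from the largest rise (Mest, 5.19) to the largest fall (Dlk1, -2.86). The PRC2 cKO non-growing libraries of Phlda2 are the widest pair.

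The same stages in PRC2 cKO oocytes gave 12 rises and 11 falls among the 33 tested members, against 20.1% and 46.0% of all genes, or 66.1% in either direction. Of these, the rising Asb4, Dio3, Osbpl5 and Plagl1 were below 1 TPM in both non-growing cKO libraries, and the falling Peg3 was below it in both growing ones. Growing libraries were both higher for 17 of the 50 and both lower for 19, against 19.1% and 34.8% of all models above 0. Of the members called in control, 9 of 10 rises and 11 of 15 falls were also called in PRC2 cKO, or 75% of the 12 rises and 100% of the 11 falls there. The other scalings moved the all-gene median here from -0.45 to between -0.22 and 0.00, the member median from -0.18 to between 0.17 and 0.25, and the split of all calls from 2844 higher and 6516 lower to as much as 4386 and 4179. Over all genes the shared calls made up 90.1% of the control rises and 78.7% of the control falls, and 74.3% of the cKO rises and 92.3% of the cKO falls. Airn, the antisense RNA that silences Igf2r, was called only in the cKO comparison and went from 1.17 and 1.07 to 2.53 and 2.05 TPM there (log2 fold change 0.63, adjusted p = 0.0243). H13, a signal peptide peptidase that contains Mcts2, went from 20.2 and 37.8 to 67.6 and 107 TPM (log2 fold change 1.58, adjusted p = 0.00343), and Osbpl5, an oxysterol-binding protein, from 0.26 and 0.47 to 1.64 and 1.45 TPM (log2 difference 0.90). With 1 library left out in turn Airn and Dio3 lost the call in cKO at least once, at adjusted p between 0.0651 and 0.0897, and Impact and Ube3a lost it under another scaling. In control oocytes Airn, H13 and Osbpl5 gave 0.48 (adjusted p = 0.059), 0.78 (adjusted p = 0.0555) and -0.42 (adjusted p = 0.059). A call in one genotype and not in the other is no difference between them, and the test of that difference called 0 of the 33 members by limma, 6 of them at an unadjusted p under 0.05, against 0.0989% of all genes called (0.0919% upwards and 0.00707% downwards).

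No imprinted gene passed in PRC2 cKO at either stage. In non-growing oocytes 0 of 33 tested members passed by limma, with 10 at an unadjusted p under 0.05, and in growing oocytes 0 of 33, with 5. The 10 include Ascl2 and Ndn and the 5 include Osbpl5, in directions that the entry rule favours. Few genes passed at all, 0.311% of 14153 genes in non-growing (0.113% higher, 0.198% lower) and 0.170% in growing oocytes (0.120% higher, 0.0495% lower). Median log2 fold changes of the members were -0.13 and 0.16, against -0.09 and 0.08 over all genes. Both cKO libraries lay above both controls for 7 members and below for 19 in non-growing oocytes, where 14.8% and 23.1% of all models did so, and for 12 and 5 in growing oocytes, where the shares were 17.8% and 8.92%.

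The members nearest to passing differed between stages, and for Ascl2 and Osbpl5 the entry rule favoured the direction. In non-growing oocytes Trappc9 was at 10.1 and 11.7 TPM in control libraries, against 6.77 and 7.68 TPM in PRC2 cKO, a log2 fold change of -0.53 (SE 0.12, adjusted p = 0.148). Dlk1 was at 9.93 and 14.2 TPM in control libraries, against 5.25 and 6.31 TPM in PRC2 cKO, a change of -0.93 (SE 0.24, adjusted p = 0.166). Trappc9 and Dlk1 were lower in both cKO libraries, with 95% intervals of -0.82 to -0.23 and -1.50 to -0.37. Ascl2 was at 1.94 and 1.52 TPM against 0.71 and 0.75 TPM, a log2 difference of -0.65. It reached 1 TPM only in non-growing controls and had to be lower in cKO of that stage, so no p is given. Phlda2 was at 0.22 and 0.74 TPM in control libraries, against 1.86 and 18.9 TPM in PRC2 cKO, a change of 2.37 (SE 0.79, adjusted p = 0.248). The cKO libraries of Phlda2 lay far apart, and without replicate 1 of that group the value was 3.77 (adjusted p = 0.0185), the one call any left-out library gave at either stage. In growing oocytes Osbpl5 was at 0.34 and 0.35 TPM in control libraries, against 1.64 and 1.45 TPM in PRC2 cKO, a log2 difference of 0.92. It reached 1 TPM only in growing PRC2 cKO oocytes and had to be higher there, so no p is given.

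**Figure D4:**
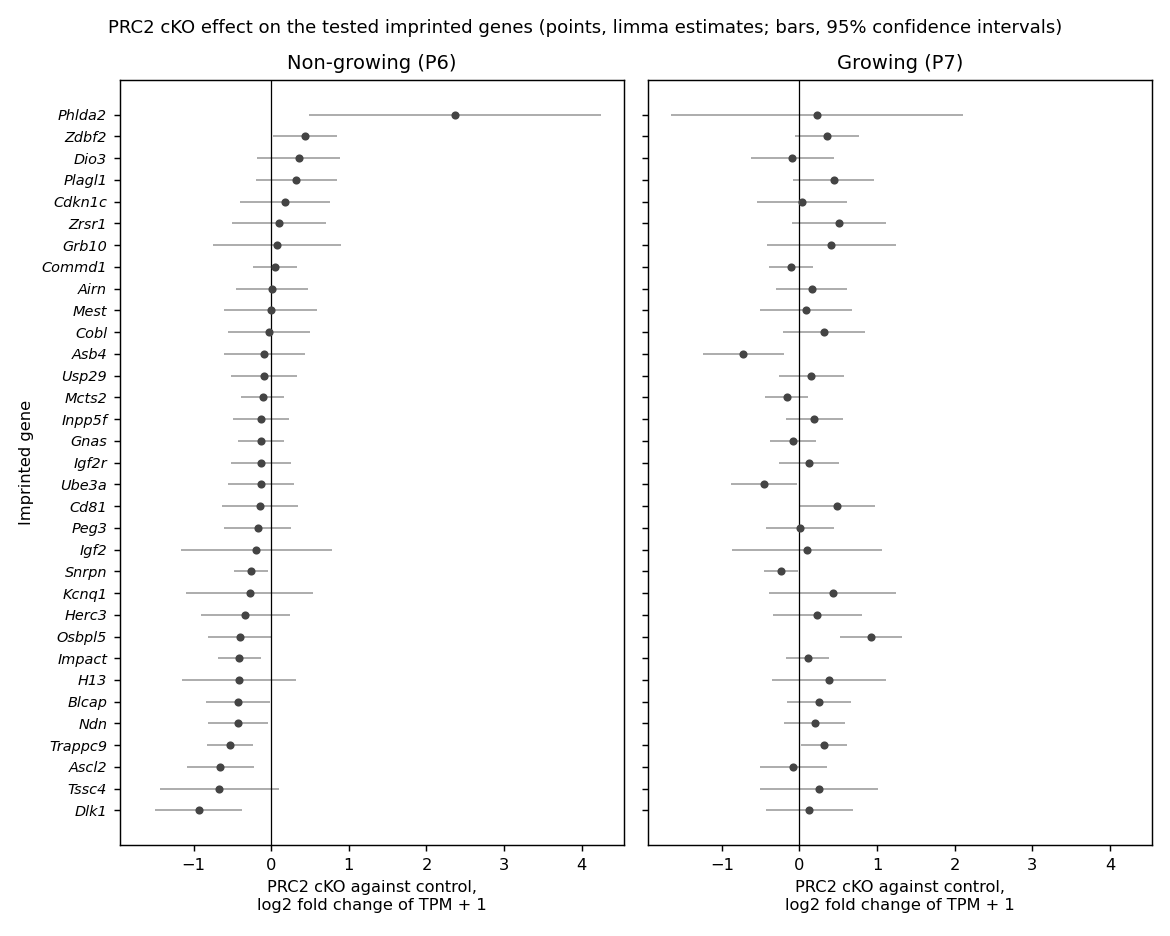
Log2 fold change of TPM + 1 in PRC2 cKO against control for the 33 tested imprinted genes, in non-growing (left) and growing (right) oocytes on the same scale, ordered by the left panel. Points are limma estimates and bars 95% confidence intervals. Phlda2 has the widest interval at both stages, and no member passed. Ascl2 and Ndn on the left and Osbpl5 on the right lie in directions that the entry rule favours.

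The genes that led the PRC1 comparison did not pass or were not tested in PRC2 cKO growing oocytes. The change of Dlk1 there was 0.13 (95% interval -0.43 to 0.69), that of Cd81 0.49 (-0.0041 to 0.98) and that of Ascl2 -0.08 (-0.51 to 0.35). Slc22a18 was at 0.04 and 0.12 TPM in control libraries, against 0.14 and 0.04 TPM in PRC2 cKO, Peg12 at 0.08 and 0 against 0.04 and 0.02 TPM, and Rasgrf1 at 0.01 and 0.09 against 0.22 and 0.03 TPM, all under the level tested. Mest was at 81.2 and 96.4 against 79.3 and 111 TPM, a change of 0.08 (-0.51 to 0.68). The PRC1 and PRC2 effects come from separately normalized tables with different controls, and the difference between them was not tested.

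Most members called in both the growth and the PRC1 comparison had opposite directions, as was the case for genes in general. Of the 32 members tested in both comparisons, which share no library, 12 were called in both. Ascl2, Cd81, Cdkn1c, Commd1, Dlk1, Impact, Ndn, Ube3a and Zdbf2 fell with growth and were called higher in PRC1 cKO, Asb4 and Mest rose with growth and fell in PRC1 cKO, and Phlda2 rose in both. Of these, Ndn and Zdbf2 had to be higher in PRC1 cKO. The entry rule also favours the growth directions of Ascl2, Ndn, Zdbf2, Asb4 and Phlda2, so the counts are a description only. Opposite directions made up 91.7% of these 12 members and 93.6% of the 4822 genes called in both, so the members stood near the background. As reported, 3846 genes were lower with growth and higher in PRC1 cKO and 665 the reverse. This split depended on the scaling, with 4 and 6 members (1576 and 1625 of all genes) after quantile normalization, 4 and 5 (1400 and 2059) after trimmed-mean scaling and 7 and 3 (2574 and 1128) after protein-coding scaling. Under these scalings the members' share was 81.8% to 100% and that of all genes 90.8% to 91.9%. Dlk1 in PRC1 cKO, at 188 and 125 TPM, was above its non-growing control level of 9.93 and 14.2 TPM in the other table, and Mest at 25.4 and 36.6 TPM was above its non-growing 1.58 and 1.33 TPM, in tables that were normalized separately.

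**Figure D5:**
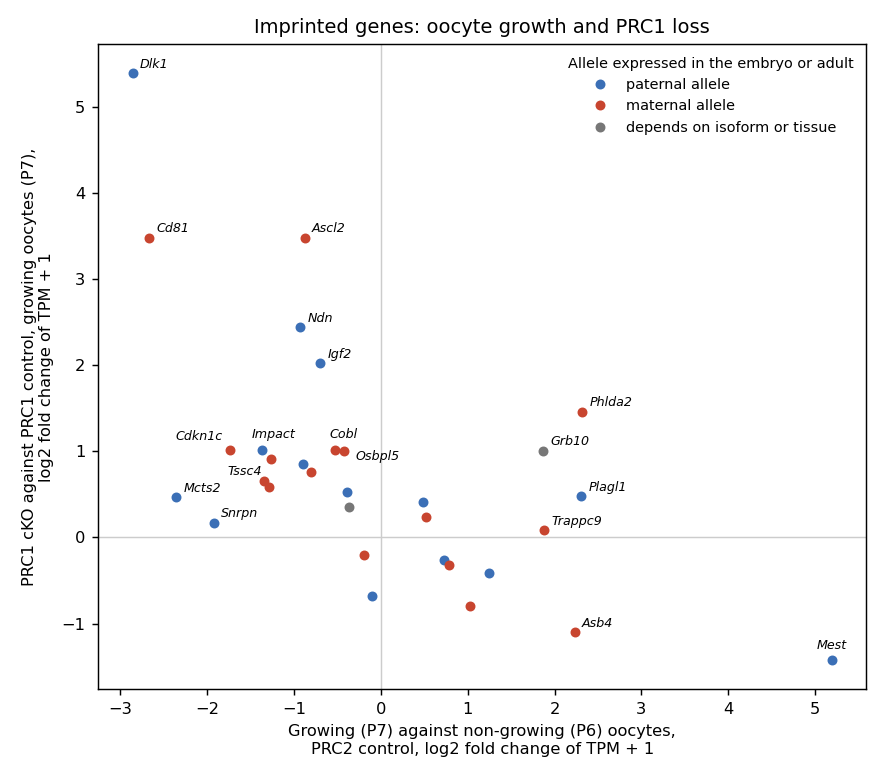
Each point is 1 of the 32 imprinted genes tested in both tables, with the log2 fold change of growing against non-growing control oocytes on the horizontal axis and that of PRC1 cKO against control on the vertical axis, coloured by the allele expressed in the embryo or adult. Dlk1 lies at -2.86 and 5.39 and Mest at 5.19 and -1.42. Both allele classes are spread over the same area.

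Several members overlap another member, and such pairs are uncertain since strand use in counting was not stated. Nnat lies inside Blcap, Nap1l5 inside Herc3 and Zrsr1 inside Commd1, each on the opposite strand, and Mcts2 inside H13 and Peg13 inside Trappc9 on the same strand. In PRC1 cKO Nnat was called higher and Blcap, at 105 and 132 against 144 and 135 TPM, was not called (log2 fold change 0.24, adjusted p = 0.258). Zrsr1, a splicing factor related to U2AF, was at 4.4 and 4.12 against 1.99 and 2.61 TPM (log2 fold change -0.68, adjusted p = 0.0543) while Commd1 rose, and it was called lower under each of the 3 other scalings (-0.86 to -1.47). Herc3, at 8.7 and 10.5 against 10.3 and 6.48 TPM (log2 fold change -0.20, adjusted p = 0.587), did not pass beside Nap1l5. Igf2r and Airn overlap as well and gave 0.65 (adjusted p = 0.149) and 0.42 (adjusted p = 0.163). Blcap, Meg3 and Snrpn share stretches of 264, 805 and 700 bases at 97.7%, 100% and 95.3% identity with the models Gm3852, Gm26906 and Gm5802, which could also split reads.

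The remaining tested members did not pass as reported. In the PRC1 comparison Grb10 was at 13.4 and 15.5 TPM in control libraries, against 44.2 and 20.2 TPM in cKO (log2 fold change 1.01, adjusted p = 0.083). Gnas was at 204 and 199.8 against 214 and 311 TPM, H13 at 116 and 141 against 118 and 88.1 TPM, and Trappc9 at 48.7 and 43.9 against 49.7 and 48.2 TPM, none of them passing without rescaling. After the other scalings H13 was at -0.57 to -0.94 and passed each time, at adjusted p between 0.00726 and 0.0451. Inpp5f, an inositol phosphatase, was at 13.6 and 14.8 against 20.3 and 21.6 TPM, a change of 0.53 (adjusted p = 0.0588), with both cKO libraries higher. Plagl1, Mcts2 and Usp29 gave 0.48, 0.47 and -0.26. Of the members below the level tested, Peg3 was at 0.52 and 0.57 against 2.06 and 0.83 TPM, Ddc at 0.32 and 0.58 against 1.08 and 0.93 TPM, and Sgce at 0.52 and 0.32 against 0.56 and 0.25 TPM.

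A list of other imprinted genes outside the 50 had 33 matches. In PRC1 cKO 11 were called higher and 1 lower among 19 tested (41.3% and 6.45% of all genes, other scalings not run for this list). Of those tested, Atp10a, Casd1, Ins2, Pon2, Tnfrsf22, Tnfrsf23 and Zim2 were below 1 TPM in both controls and entered only through PRC1 cKO, so they had to be higher there. Tnfrsf22, a decoy receptor at the edge of the Kcnq1ot1 cluster, was at 0.02 and 0.04 against 3.9 and 2.84 TPM (log2 difference 2.07). Zim2 of the Peg3 cluster was at 0.54 and 0.29 against 5.28 and 3.87 TPM (log2 difference 1.97). The one that fell was Gpr1, at 34.1 and 28.8 against 5.23 and 9.8 TPM (log2 fold change -1.98, adjusted p = 0.0075), which with growth had risen from 1.8 and 1.58 to 30.9 and 37 TPM (log2 fold change 3.69, adjusted p = 6.73e-06). With growth 3 of these genes rose and 9 fell among 18 tested (16.6% and 54.0% of all genes), and in PRC2 cKO 0 of 18 passed at either stage by limma, with 4 and 1 at an unadjusted p under 0.05. Among 12 genes that set or protect imprints, 4 rose and 4 fell with growth (33.3% each, against 16.6% and 54.0% of all genes). In PRC1 cKO 2 were called higher and 4 lower (16.7% and 33.3%, against 41.3% and 6.45%), and other scalings were not run for this list. Dnmt3l, Dnmt1, Zfp57 and Dnmt3a rose with growth and fell in PRC1 cKO. Dnmt3l reached 1 TPM only in growing oocytes of the PRC2 groups, so the entry rule favours its rise. In the PRC1 groups it was at 28.8 and 24.3 against 5.9 and 13.5 TPM (log2 fold change -1.46, adjusted p = 0.0314). Hells and Trim28 were called higher in PRC1 cKO at 0.93 and 0.71, beside the all-gene median of 0.55.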

How the data were processed

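RNA-seq was available for 12 libraries of mouse oocytes, 2 per group, and titles gave group and replicate. RNA extraction used the RNeasy Plus Micro kit and library preparation a NEBNext kit for low input, per the labels' protocols. The deposited values are TPM in 2 tables, of 8 PRC2 and 4 PRC1 libraries. The submitters' processing notes name RSEM 1.3.3, Subread 2.0.3, SAMtools, HISAT2 and Trim Galore 0.6.10, and the build GRCm38 (mm10). The tool that made the TPM values, strand use and the treatment of multi-mapping reads were not given in the sources used here. TPM keeps no depth, so the depth behind each value is unknown and no count test was made.

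Genes that reached 1 TPM in 2 or more libraries of their table entered limma 3.58.1 (R 4.3.3, eBayes with trend) as log2(TPM + 1), with 1 fit per table over its groups and no covariates. Tests were two-sided, p-values were adjusted by Benjamini-Hochberg over all genes of a contrast, and the threshold was 0.05. The fit was tested on simulated data. Tables were never compared by a test. Coordinates are those of the files. GENCODE vM21 gave gene classes, promoters came from RefSeq (GRCm38.p6), and close copies were found with blastn 2.17.0 (Airn and Kcnq1ot1 were not searched). Of the 34 other imprinted genes listed, 33 matched.

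Members, gene lists and tests were chosen with earlier results of these data known. Values per library are given for members that passed in any contrast and for the 8 most abundant in each table, and others by range and count. Zrsr1 and Herc3 are given as overlapping partners of members that passed. Mkrn3, Begain, Inpp5f, Ddc and Sgce were named after their values were seen. Genes of other lists are named where they passed, where they entered only through PRC1 cKO or, for markers, to describe a sum. Alternatives were pseudocounts of 0.1 and 5, no filter, quantile normalization, trimmed-mean scaling, scaling to nuclear protein-coding genes, eBayes without trend, a fit of only the compared groups, a replicate block and each library left out.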

Additional observations from a re-analysis of the deposited data

Results flagged for a closer look

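For 4 imprinted genes the PRC2 cKO libraries lay below both controls in non-growing oocytes and above both in growing oocytes. Osbpl5 was at 0.98 and 0.64 TPM in control libraries, against 0.26 and 0.47 TPM in cKO non-growing oocytes, and at 0.34 and 0.35 against 1.64 and 1.45 TPM in growing oocytes, a difference of the log2 effects of 1.32. Osbpl5 entered the test only through growing PRC2 cKO oocytes and had to be higher there, so no p is given. Trappc9 was at 10.1 and 11.7 against 6.77 and 7.68 TPM, then at 42 and 43.1 against 53.3 and 52.8 TPM, a difference of 0.84 (SE 0.17, limma adjusted p = 0.278). Ndn was at 1.61 and 1.26 against 0.83 and 0.78 TPM, then at 0.17 and 0.39 against 0.45 and 0.47 TPM, a difference of 0.62. Ndn entered only through non-growing controls and had to be lower in cKO of that stage, so no p is given. Impact was at 36.5 and 35.2 against 28.5 and 25.1 TPM, then at 13.1 and 13.6 against 14.2 and 14.7 TPM, a difference of 0.52 (SE 0.16, limma adjusted p = 0.305). None of the 4 differences passed, and the direction is that of the all-gene median difference as reported, 0.16. This double pattern was found in 4 of the 50 members and in 1496 of 30642 models above 0, or 4.88%. Over all genes, 23.1% of models were lower without overlap in non-growing and 17.8% higher without overlap in growing PRC2 cKO oocytes.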

How the results depend on the processing

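In 7 values a member called as changed turned its sign under another scaling. The growth change of Gnas in PRC2 control became 0.31 after quantile normalization, 0.46 after trimmed-mean scaling and 0.13 after scaling to nuclear protein-coding genes. In PRC1 cKO, Meg3, Zdbf2 and Nap1l5 became -0.0085, -0.13 and -0.16 after quantile normalization, and Commd1 became -0.036 after trimmed-mean scaling. Of the members called, 16 of 25 for growth in control, 19 of 23 for growth in PRC2 cKO and 9 of 20 for PRC1 cKO kept the call under every alternative that gave a value. The PRC1 count includes Igf2, Ndn, Peg12, Rasgrf1 and Slc22a18, which entered only through PRC1 cKO. The growth counts include members that reached 1 TPM at only 1 stage. No value was given, for want of 2 libraries at 1 TPM, by Igf2, Meg3, Nap1l5, Ndn, Nnat, Peg12, Rasgrf1, Slc22a18 and Zdbf2 without either PRC1 cKO library, by Ndn and Ascl2 without either non-growing control, and by Osbpl5 without either growing PRC2 cKO library, which also lowers those counts. With 1 library left out in turn, the number of members called was 0 to 1 for PRC2 cKO in non-growing oocytes, 0 in growing oocytes, 0 to 2 for the difference of these effects (Tssc4 and Blcap, without PRC2 cKO growing replicate 1), 18 to 26 and 22 to 24 for growth in control and PRC2 cKO, and 11 to 17 for PRC1 cKO. Over all genes these counts ran from 6 to 48, 9 to 28, 2 to 922, 8222 to 10488, 8153 to 9080 and 3747 to 5865, beside 44, 24, 14, 9986, 9360 and 7140 as reported, and without the filter 91 and 50 genes were called for PRC2 cKO in non-growing and growing oocytes. Fitting only the compared groups called 11 genes for PRC2 cKO in growing oocytes, and for the difference of effects 5 genes were called with the block and 21 without the filter. Leaving a library out leaves 1 sample in its group, which is then taken to vary like the other groups. A replicate block called 0, 0, 28, 23, 0 and 15 members in the order of PRC2 cKO non-growing, PRC2 cKO growing, growth in control, growth in PRC2 cKO, difference of effects and PRC1 cKO, and 20 and 5094 of all genes for PRC2 cKO non-growing and PRC1 cKO. The labels do not say that equal replicate numbers pair libraries, and deviations of equal numbers correlated at -0.03 to 0.26 over pairs of PRC2 groups and at -0.27 between the PRC1 groups. Depth is unknown, so no limit for values near 0 can be given.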
